A study of Mus musculus with 7 samples.

Results

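The genes described here are 40 genes of DNA replication and mitosis, 22 that act in S phase and 18 that act in mitosis. They were chosen by name from knowledge of the cell cycle, with earlier results of these data known. Each was read from the probes whose RefSeq accession carried its symbol. All 40 had a probe that could be tested, among 14553 genes tested on the array. None of the 40 differed between arrays labelled Gata2 knockout and control arrays past the threshold, an adjusted p of 0.05 in limma.

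The study hybridised RNA of cultured dendritic cells to 7 Agilent arrays of 1 colour, 3 labelled Gata2 knockout and 4 labelled control. The cells had been grown from common myeloid progenitors of the bone marrow. The mice were C57BL/6. By the protocols, the knockout progenitors came from Gata2(f/f)/ER-Cre animals, in which tamoxifen activates the Cre recombinase, and the control progenitors from Gata2(f/f) animals without the Cre. Both genotypes were CD45.2+ and both received tamoxifen between day 1 and day 10, and progenitors were sorted on day 20 to 22. In both groups the progenitors were cultured with FLT3-L, a growth factor for dendritic cells, at 200 ng/ml on bone marrow feeder cells of SJL (CD45.1+) mice. The labels do not say whether feeder cells were removed before RNA was taken, what promoter drove the Cre, or whether replicates came from separate animals. The p-values therefore measure only the spread between these arrays, which may be technical. Cre activity, loss of Gata2 and the position of each group in its own slide row cannot be told apart.

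A cell that leaves G1 switches on the genes of S phase, which license and fire replication origins, build DNA and supply its nucleotides. Many of these genes are driven by E2F transcription factors. The genes of mitosis follow later in the cycle, and their promoters are known for pairs of a CCAAT box with a cell cycle homology region (CHR), through which they are held silent in resting cells. Transcript levels of both sets are commonly used as a sign of how many cells in a population are dividing. In RNA from bulk cells, fewer cells of a kind and less RNA per cell cannot be told apart.

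All values below are log2 signals relative to the 75th percentile of the same array, so a difference of 1 is a 2-fold change. Levels of different probes are not set against each other, apart from the summed signals of marker lists further below. Every member was well above background on all 7 arrays. The Gata2 probe itself read 2.93, 3.00 and 3.06 on the arrays labelled knockout and -0.25, 0.24, 0.36 and 0.34 on the control arrays. It was therefore brighter in the group labelled knockout, by 2.82 (SE 0.17, limma adjusted p = 0.000157). It is not given whether the deletion removes the stretch this probe reads, and the source name of these samples carries an unexplained G2KD. The probe therefore does not bear out the labels. The group is called by its label throughout, and every direction given here rests on that label and would turn if the labels were exchanged. Of 12 markers of dendritic cells, 11 could be tested and were well above background on all 7 arrays. Xcr1, a marker of cross-presenting dendritic cells, was above background on 1 array and was not tested.

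The promoters of the S phase and mitotic members held the motifs searched in different shares. Promoters from RefSeq (GRCm38.p6, 250 bases before to 50 bases after the start) matched 33 of the 40 symbols, with 35 promoters in all. Ccne2, Gins1, Gins2, Mcm4, Aurkb, Ccna2 and Tpx2 had no match in the table. Searched on both strands, an E2F site (TTTCCCGC, TTTGGCGC or TTTCGCGC) stood in 9 of 20 S phase promoters (45.0%) and in 1 of 15 mitotic promoters (6.67%), that of Cdk1. Among 32851 promoters of the same length it stood in 1.84%. A CHR (TTTGAA or TTCGAA) stood in 12 of 15 mitotic promoters (80.0%) and in 3 of 20 S phase promoters (15.0%), beside 19.2% of all promoters. A CCAAT box (CCAAT) stood in 93.3% of mitotic, 70.0% of S phase and 37.4% of all promoters. All 12 mitotic promoters with a CHR also held a CCAAT box, a pair found in 7.52% of all promoters. Such a match is a description of the letters in this window and no evidence of binding.

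The sequences below are the 250 bases before the start of 5 members, 5′ to 3′ on the gene's own strand, with capitals marking every match on either strand. Rrm2, E2f2, Ube2c and Plk1 are shown because they had the smallest p of their class among members with a matched promoter. Mcm6 is shown because it held the most E2F sites, and was chosen after values were seen. The intervals are Rrm2 at chr12:24708004-24708253 (plus strand), E2f2 at chr4:136172024-136172273 (plus strand), Mcm6 at chr1:128359706-128359955 (minus strand), Ube2c at chr2:164769679-164769928 (plus strand) and Plk1 at chr7:122159185-122159434 (plus strand).
Rrm2: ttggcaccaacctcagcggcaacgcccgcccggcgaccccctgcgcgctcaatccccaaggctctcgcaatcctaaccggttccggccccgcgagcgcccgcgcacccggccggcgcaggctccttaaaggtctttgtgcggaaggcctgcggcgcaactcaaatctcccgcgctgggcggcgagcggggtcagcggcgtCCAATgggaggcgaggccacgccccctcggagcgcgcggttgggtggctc
E2f2: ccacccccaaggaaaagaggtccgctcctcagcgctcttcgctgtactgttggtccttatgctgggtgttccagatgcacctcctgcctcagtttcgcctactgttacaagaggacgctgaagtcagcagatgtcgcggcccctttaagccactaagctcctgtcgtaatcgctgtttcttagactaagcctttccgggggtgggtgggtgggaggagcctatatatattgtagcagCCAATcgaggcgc
Mcm6: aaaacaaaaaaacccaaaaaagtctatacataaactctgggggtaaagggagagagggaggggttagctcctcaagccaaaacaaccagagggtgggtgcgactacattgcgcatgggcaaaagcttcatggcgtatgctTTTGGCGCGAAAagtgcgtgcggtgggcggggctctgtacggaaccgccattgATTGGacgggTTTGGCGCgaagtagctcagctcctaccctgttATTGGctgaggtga
Ube2c: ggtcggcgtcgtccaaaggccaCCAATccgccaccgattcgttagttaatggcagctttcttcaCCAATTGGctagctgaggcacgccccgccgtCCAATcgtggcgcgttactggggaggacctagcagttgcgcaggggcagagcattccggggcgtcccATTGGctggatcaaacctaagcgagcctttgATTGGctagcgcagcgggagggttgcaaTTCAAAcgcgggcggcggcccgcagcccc
Plk1: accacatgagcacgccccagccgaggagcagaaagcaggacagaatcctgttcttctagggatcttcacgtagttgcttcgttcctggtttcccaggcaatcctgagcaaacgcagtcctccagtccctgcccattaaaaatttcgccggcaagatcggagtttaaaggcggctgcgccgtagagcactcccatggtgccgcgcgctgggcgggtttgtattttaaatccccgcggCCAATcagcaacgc

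In Mcm6 the capitals mark 3 E2F sites, of which the pair beginning at -110 and -106 overlap, and 2 CCAAT boxes read on the opposite strand. In Ube2c they mark 6 CCAAT boxes, a pair of them overlapping, and 1 CHR at -29. Rrm2, E2f2 and Plk1 each show 1 CCAAT box, and the E2F match of E2f2 and the CHR match of Plk1 lie in the 50 bases after the start, which are not printed. Of the printed stretches only those of Mcm6 and Ube2c hold a class motif, an E2F site or a CHR.

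Across the whole set the groups lay close together. None of the 40 members passed the threshold in limma, where 2.87% of all genes tested (1.48% higher and 1.38% lower in the group labelled knockout) and 2.4% of the 12852 genes well above background on all 7 arrays did. Aurkb and Ube2c were the only members with an unadjusted p under 0.05, 2 of 40 beside 13.5% of all genes tested and 12.5% of genes above background on all arrays. The log2 fold changes, labelled knockout minus control, ran from -0.72 for Ccne2 to 0.25 for Plk1. Only Ccne2 exceeded 0.5 in either direction, which is 2.5% of members beside 9.91% of genes above background on all arrays. None exceeded 1, which 4.51% of all genes tested and 2.51% of genes above background on all arrays did. The median absolute log2 fold change was 0.14 over the members and 0.16 over those genes. For 39 of the 40 members the 95% interval, not adjusted for the number of genes, lay within 1 in either direction, that is within a 2-fold change. The same held for 87.7% of genes above background on all arrays. For 20 members it lay within 0.5. A larger number of arrays would be needed to see differences smaller than these intervals.

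**Figure D1:**
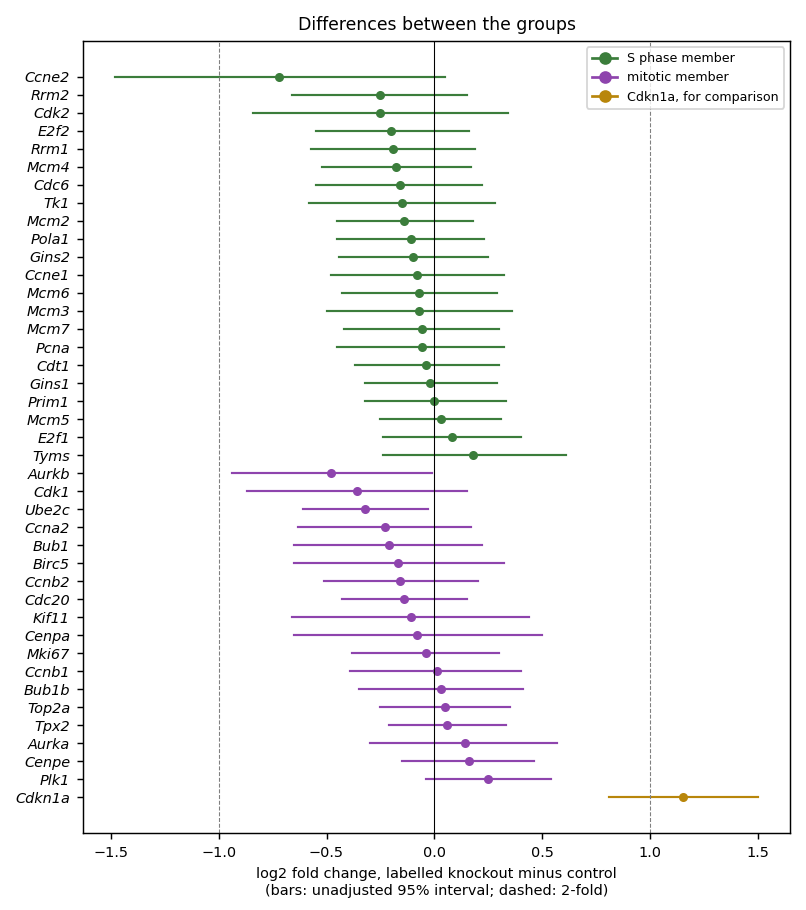
Points are log2 fold changes of the 22 S phase and 18 mitotic members, labelled knockout minus control, with unadjusted 95% intervals from limma, and Cdkn1a for comparison; dashed lines mark a 2-fold change. Every member's interval except that of Ccne2 stays between the dashed lines. Cdkn1a, at 1.15, is the only gene that passed in the cell cycle lists, so its contrast with the members is a description.

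The genes that license and fire replication origins varied little between the groups. This set held Mcm2 to Mcm7, which form the replicative helicase, Cdc6 and Cdt1, which load it onto DNA, and Gins1 and Gins2 of the complex that activates it. Their log2 fold changes ran from -0.18 for Mcm4 to 0.03 for Mcm5, with a median of -0.07. No interval reached beyond -0.55 or 0.36. Mcm2 read 4.25, 4.43 and 4.36 on the arrays labelled knockout and 4.48, 4.66, 4.56 and 4.25 on the control arrays, means of 4.35 ± 0.09 (SD, n = 3) and 4.49 ± 0.17 (SD, n = 4). The knockout values lay within the control range, and the difference was -0.14 (SE 0.14, limma adjusted p = 0.737). Mcm6, with its 3 E2F sites, differed by -0.07 and Mcm7 by -0.06. Mcm3 differed by -0.07, Cdt1 by -0.04, Gins1 by -0.02 and Gins2 by -0.10, all smaller than their standard errors. Cdc6 had a difference of -0.16 on its brighter probe and 0.21 on its other probe, so its sign depended on the probe.

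The genes of DNA synthesis and nucleotide supply had a median log2 fold change of -0.11 and a range of -0.25 to 0.18. Pcna, the sliding clamp that holds the polymerase on DNA, read 5.53, 5.41 and 5.42 on the arrays labelled knockout and 5.26, 5.68, 5.80 and 5.32 on the control arrays. All 3 knockout values fell between the lower and the upper pair of controls, and the difference was -0.06 (SE 0.17, 95% interval -0.45 to 0.32, limma adjusted p = 0.914). Rrm2, the S phase subunit of ribonucleotide reductase, read 4.57, 4.63 and 4.77 against 4.52, 5.19, 4.88 and 5.03. Control 1 lay below every knockout array and the other 3 controls above them, so the groups overlapped. The difference was -0.25 (SE 0.18, limma adjusted p = 0.605). Its partner subunit Rrm1 differed by -0.19, and Pola1 and Prim1, of the polymerase that starts new strands, by -0.11 and 0.00. Tyms, which makes thymidylate, differed by 0.18, and Tk1, which recovers thymidine, by -0.15.

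The E2F factors and the cyclin E module held the member with the largest difference. Ccne2, cyclin E2, which with Cdk2 drives entry into S phase, read -2.40, -1.80 and -2.70 on the arrays labelled knockout and -1.42, -1.03, -1.53 and -2.37 on the control arrays. The means were -2.30 ± 0.46 (SD, n = 3) and -1.59 ± 0.56 (SD, n = 4). Control 4 read as low as the knockout arrays, so the groups overlapped. The log2 fold change was -0.72 (SE 0.33, 95% interval -1.48 to 0.05, limma adjusted p = 0.406). Ccne1, cyclin E1, differed by -0.08 on its brighter probe and 0.23 on its other probe.

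Cdk2 read 0.88, 1.89 and 0.94 on the arrays labelled knockout against 1.48, 1.22, 1.66 and 1.58 on the controls. Knockout 2 was above every control and the other knockout arrays below every control, so the replicates of the group spanned more than the controls did. The log2 fold change was -0.25 (SE 0.26, limma adjusted p = 0.741). E2f1, an activator of S phase genes, read 3.95, 3.71 and 3.58 against 3.57, 3.73, 3.79 and 3.57. Its groups overlapped almost entirely and differed by 0.08 (SE 0.14, limma adjusted p = 0.851). E2f2, another activator, read 3.80, 3.40 and 3.85 against 3.72, 3.95, 4.01 and 3.84, with knockout 2 alone below all controls. It differed by -0.20 (SE 0.15, limma adjusted p = 0.65).

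Among the mitotic cyclins, kinases and the machinery of mitotic exit the differences ran both ways, from -0.36 to 0.25. Cdk1, the kinase that drives entry into mitosis, read 3.92, 3.47 and 3.80 on the arrays labelled knockout and 3.73, 4.50, 4.30 and 3.83 on the controls. Controls 2 and 3 were above every knockout array, and controls 1 and 4 were within their range. The log2 fold change was -0.36 (SE 0.22, 95% interval -0.87 to 0.15, limma adjusted p = 0.546). The 3 probes of Cdk1 gave differences of -0.51 to -0.13. Ccnb1, cyclin B1, its partner, read 4.64, 5.03 and 4.90 against 4.65, 4.81, 5.18 and 4.75, with the groups fully mixed. It differed by 0.01 (SE 0.17, limma adjusted p = 0.992). Ccnb2 and Ccna2, the other mitotic cyclins measured, differed by -0.16 and -0.23, and Aurka, the kinase of the spindle poles, by 0.14.

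The groups did not overlap for Ube2c and Plk1, and they were separated in opposite directions. Ube2c, the enzyme that hands ubiquitin to the anaphase-promoting complex, read 5.09, 5.00 and 5.02 on the arrays labelled knockout and 5.42, 5.30, 5.51 and 5.19 on the controls. Every knockout array was below every control, with means of 5.04 ± 0.05 (SD, n = 3) and 5.36 ± 0.14 (SD, n = 4). The log2 fold change was -0.32 (SE 0.13, 95% interval -0.61 to -0.03), which did not pass after adjustment over all genes (limma adjusted p = 0.321). The other probe of Ube2c differed by -0.15 (limma adjusted p = 0.728 over all probes). Plk1, polo-like kinase 1, read 4.78, 4.89 and 4.74 on the arrays labelled knockout and 4.50, 4.41, 4.69 and 4.63 on the controls. Every knockout array was above every control, and the log2 fold change was 0.25 (SE 0.13, 95% interval -0.04 to 0.54, limma adjusted p = 0.453). These were 2 of 40 members without overlap, beside 13.8% of all genes tested and 13.5% of genes above background on all arrays. Cdc20, which activates the same ubiquitin ligase as Ube2c, differed by -0.14 with overlapping groups.

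Of the genes of the chromosome passenger complex, the kinetochore and the spindle checkpoint, Aurkb differed most. Aurkb, the kinase of the passenger complex, read 0.32, -0.25 and 0.07 on the arrays labelled knockout and 0.45, 0.66, 0.82 and 0.17 on the controls. Knockout 1 was above control 4, and otherwise the knockout arrays were lower. The log2 fold change was -0.48 (SE 0.20, 95% interval -0.94 to -0.01, limma adjusted p = 0.356). Birc5, survivin, of the same complex, differed by -0.17, and its 3 probes gave -0.32 to -0.09. The checkpoint kinases Bub1 and Bub1b differed by -0.21 and 0.03. Cenpa, the histone variant of centromeres, differed by -0.08 and Cenpe, a kinetochore motor, by 0.16.

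The genes of the spindle and of mitotic chromatin had a median log2 fold change of 0.01. Mki67, whose product Ki-67 coats mitotic chromosomes and is the usual marker of dividing cells, read 5.52, 5.34 and 5.13 on the arrays labelled knockout and 5.32, 5.23, 5.58 and 5.36 on the controls. The groups overlapped throughout, and the difference was -0.04 (SE 0.15, 95% interval -0.38 to 0.30, limma adjusted p = 0.943). Top2a, the topoisomerase that untangles chromosomes, read 3.23, 3.52 and 3.44 against 3.42, 3.27, 3.25 and 3.43. It likewise showed no separation, with a difference of 0.05 (SE 0.13, limma adjusted p = 0.909). Tpx2, which builds spindle microtubules, differed by 0.06. Kif11, the motor that pushes spindle poles apart, differed by -0.11, with knockout 2 at 3.69 and the other knockout arrays at 2.71 and 2.78.

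**Figure D2:**
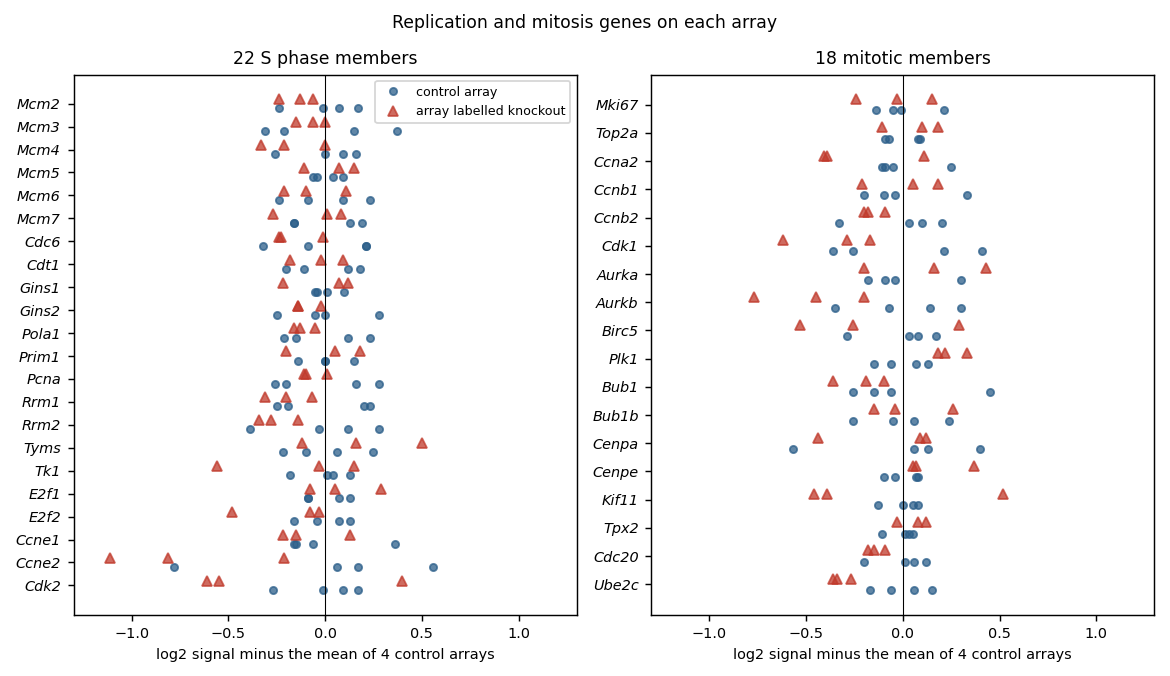
Each row is 1 member and each point 1 array, as the log2 signal minus the mean of the 4 control arrays; circles are control arrays and triangles arrays labelled knockout. The triangles lie among the circles for most genes, apart from Ube2c (all lower) and Plk1 (all higher).

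The S phase and mitotic classes had like medians between the groups. The median log2 fold change was -0.09 over the 22 S phase members, of which 18 were negative, and -0.10 over the 18 mitotic members, of which 11 were negative. The median over all genes tested was -0.05, and 58.0% of them were negative. The sign of both medians depended on the scaling: with quantile normalization they were 0.02 and 0.03, where the median of all genes was 0.02. Relative to all genes, the S phase median lay between -0.09 and 0.02 and the mitotic median between -0.08 and 0.01 over the settings tried. No direction is therefore given for either class.

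On single arrays the class medians of the groups overlapped. The median deviation of the S phase members from their control mean was -0.02, -0.11 and -0.15 on the arrays labelled knockout, and -0.10, 0.13, 0.11 and -0.07 on controls 1 to 4. Controls 2 and 3 were high, and controls 1 and 4 lay within the range of the knockout arrays. For the mitotic members the medians were -0.10, -0.06 and -0.17, and -0.08, -0.05, 0.08 and 0.04. Every knockout array was below controls 2, 3 and 4, control 2 by little, and the groups overlapped through control 1 alone. The S phase median minus the mitotic median was 0.08, -0.05 and 0.03 on the arrays labelled knockout and -0.01, 0.17, 0.03 and -0.11 on the controls. The knockout arrays thus lay inside the control range for the balance between the classes.

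The spread among members on an array was wider for mitotic than for S phase members on each of the arrays labelled knockout. The interquartile range of their deviations was 0.34, 0.48 and 0.37 for mitotic members and 0.21, 0.25 and 0.15 for S phase members. On the control arrays it was 0.18, 0.25, 0.16 and 0.17 for mitotic members and 0.20, 0.31, 0.16 and 0.28 for S phase members. Deviations are taken from the control mean, so the spread on controls is smaller by construction and the groups are not compared on it. Over all genes the interquartile range was 0.44 to 0.47 on the arrays labelled knockout and 0.23 to 0.39 on the controls.

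**Figure D3:**
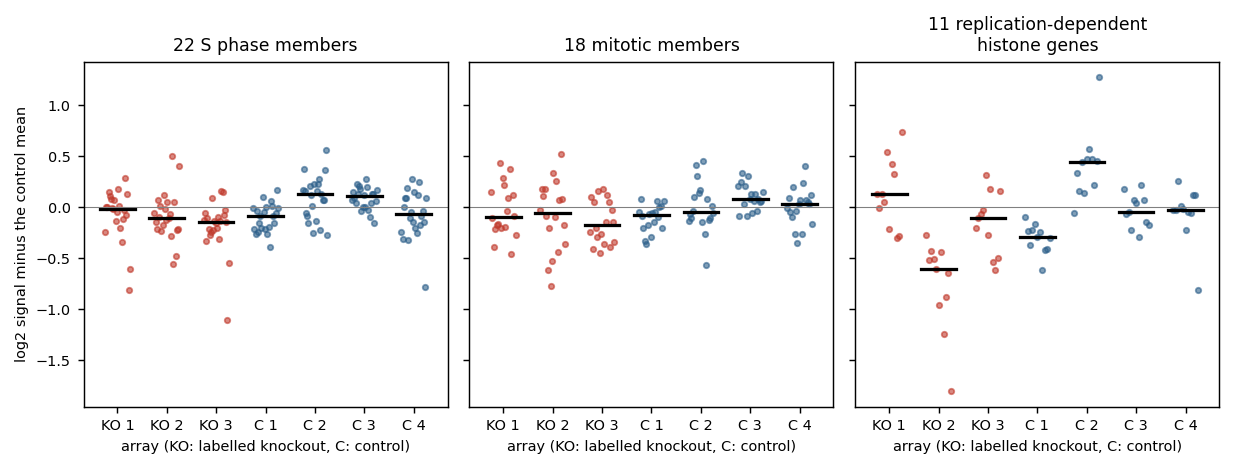
Distribution over genes, on each array, of the log2 signal minus the control mean. Panels show the 22 S phase members, the 18 mitotic members and 11 replication-dependent histone genes. KO marks arrays labelled knockout and C controls. The medians of the 2 member classes stay between -0.17 and 0.13 on all 7 arrays and those of the groups overlap. The histone medians run from -0.61 on knockout 2 to 0.44 on control 2. All values depend on the scaling to the 75th percentile.

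The other genes of replication and mitosis had medians close to those of the members. They were listed from knowledge of the pathways, with earlier results of these data known. Of 40 further replication genes, all tested, none passed in limma, and 3 had an unadjusted p under 0.05, beside 13.5% of all genes tested. Their median log2 fold change was -0.07. Fen1, the nuclease of Okazaki fragments, was at -0.39 (SE 0.22, limma adjusted p = 0.508). Of 56 further mitosis genes, all tested, none passed and 1 had an unadjusted p under 0.05, with a median of -0.08 and a range of -0.43 to 0.29. The largest differences were those of Cks2 and Cks1b, small partners of cyclin-dependent kinases, at -0.43 and -0.38 (limma adjusted p = 0.313 and 0.412). With quantile normalization the medians of the other replication and mitosis genes were 0.01 and -0.01, so no direction is given for them.

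Of 11 tested replication-dependent histone genes, which are transcribed in S phase, none passed in limma and 1 had an unadjusted p under 0.05. Their median log2 fold change was -0.21, and it ran from -0.30 to -0.03 over the settings tried. The median deviation from the control mean was 0.13, -0.61 and -0.11 on the arrays labelled knockout and -0.29, 0.44, -0.05 and -0.03 on the controls. Knockout 2 was below the control mean for all 11 genes and so was control 1, while control 2 was above it for 10 of 11. The histone probes thus differed between arrays of the same group by more than the groups differed. H2ac8, a histone H2A gene, had the largest difference at -0.60 (SE 0.20, limma adjusted p = 0.233), and H2bc8, a histone H2B gene, was at -0.49 (SE 0.38, limma adjusted p = 0.647). Histone genes of a cluster are near-identical copies, and probes may not tell them apart.

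Of 11 tested genes of G1 entry, none passed in limma and 1 had an unadjusted p under 0.05, with a median of 0.05. Mycn, a Myc family factor, was at 0.82 (SE 0.30, limma adjusted p = 0.267), and Cdk6, a cyclin D kinase, at 0.68 (SE 0.31, limma adjusted p = 0.399). Cdk6 was well above background on 3 arrays labelled knockout but only 1 control, so its value is set largely against background. Of 15 checkpoint and repair genes, none passed in limma and 0 had an unadjusted p under 0.05, with a median of 0.07. Chek1, the kinase that slows replication after DNA damage, was at 0.71 (SE 0.42, limma adjusted p = 0.533), with knockout 1 at 1.34 and all other arrays at -0.01 or lower. Brca2, of recombination repair, was at 0.29 (SE 0.37, limma adjusted p = 0.8).

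Of 21 tested brakes of the cell cycle, 1 rose and none fell in limma, beside 1.48% and 1.38% of all genes tested. A negative log2 fold change was seen for 16 of the 21, beside 58% of all genes tested, and the median was -0.12. The groups did not overlap for 2 of the 21, beside 13.8% of all genes tested. An unadjusted p under 0.05 was seen for 5 of the 21, beside 13.5% of all genes tested. The gene that rose was Cdkn1a, which encodes p21, an inhibitor of cyclin-dependent kinases and a target of p53. It read 2.82, 3.18 and 2.73 on the arrays labelled knockout and 1.89, 1.76, 1.75 and 1.63 on the controls, with no overlap. The means were 2.91 ± 0.24 (SD, n = 3) and 1.76 ± 0.11 (SD, n = 4), a log2 fold change of 1.15 (SE 0.15, 95% interval 0.81 to 1.50, limma adjusted p = 0.005). A second probe of Cdkn1a, much dimmer in the controls, differed by 3.88 in the same direction, so the size depends on the probe. Cdkn1c, which encodes the related inhibitor p57, was at 1.32 (SE 0.39, limma adjusted p = 0.154) and was well above background on 3 arrays labelled knockout but only 2 controls. The other 3 brakes with an unadjusted p under 0.05 had negative values: Btg1, an antiproliferative factor, -0.46 (limma adjusted p = 0.15, groups not overlapping), E2f5, a repressor E2F, -0.62 (limma adjusted p = 0.358), and Cdkn2d, the inhibitor p19, -0.33 (limma adjusted p = 0.346). The members' intervals and that of Cdkn1a come from the same fit. The interval of Cdkn1a lies above the upper end of every member's interval, of which the highest is 0.61. Cdkn1a was the only gene called in lists chosen with earlier results known, so this contrast is a description and tests nothing. Its call held when any 1 array was left out (limma adjusted p = 0.0131 to 0.0201). It did not hold with replicate number added as a block (log2 fold change 1.11, limma adjusted p = 0.0896). In that fit control 4, which has no knockout array of its number, adds nothing to the difference.

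**Figure D4:**
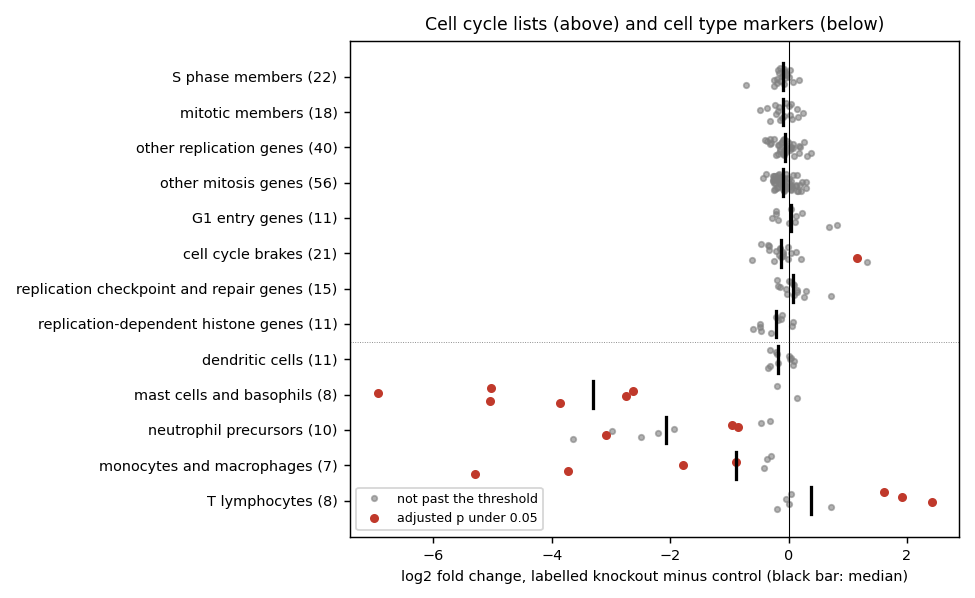
Each point is the log2 fold change of 1 gene, labelled knockout minus control, by list, with a black bar at the list's median; grey genes did not pass and coloured genes had an adjusted p under 0.05 in limma. In the cell cycle lists only Cdkn1a is coloured, while 6 mast cell and basophil, 3 neutrophil precursor and 4 monocyte and macrophage markers are coloured below 0 and 3 T lymphocyte markers above 0.

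Markers of other cell types did differ between the same arrays, and their part in the members' values was not tested. Of 8 mast cell and basophil markers, 6 fell, where 1.38% of all genes tested did. The list's summed signal was 7.53 to 10.5 on the arrays labelled knockout and 18.2 to 29.8 on the controls, in units of each array's 75th percentile. Such a sum mostly follows the brightest probes of its list. On the arrays labelled knockout the brightest here was Kit (2.70, 3.29 and 2.76), which did not fall (limma adjusted p = 0.688). The brightest erythroid marker was Hemgn and the brightest T lymphocyte marker Lck. The brightest neutrophil precursor marker was Ctsg and the brightest monocyte and macrophage marker Csf1r. Neither Ctsg nor Csf1r passed (limma adjusted p = 0.461 and 0.472), so the sums of these lists do not give the size of the falls called in them. Of 10 markers of neutrophil precursors, 3 fell (87.3 to 122 against 131 to 150), and of 7 tested markers of monocytes and macrophages 4 fell (50.1 to 61.6 against 69.6 to 85.4). Of 8 T lymphocyte markers, Lck, Tcf7 and Trat1 rose (7.15 to 8.16 against 3.73 to 3.92), where 1.48% of all genes tested did. The others did not pass (limma adjusted p = 0.7 or more). The CD3 chains Cd3e, Cd3d and Cd3g differed by -0.05, 0.01 and 0.72, Cd4 by 0.05 and Cd8a by -0.20. None of 11 dendritic cell markers (309 to 364 against 346 to 404), 5 erythroid markers (71.9 to 89.2 against 83.2 to 111) or 7 B lymphocyte markers (14.8 to 18.6 against 14.8 to 20.8) passed in limma, with an unadjusted p under 0.05 for 0, 0 and 1 of them. The erythroid markers Alas2 and Rhag were not well above background on any array. The share of probes well above background also differed, at 60.8% to 66.9% on the arrays labelled knockout and 53.3% to 56.2% on the controls. Its part in the members' values was not tested, and all members were well above background on every array.

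Of the 40 members, 32 had 1 tested probe and 8 had several, 51 probes in all. Fitted probe by probe among 34133 tested probes, none of the 51 passed. The probes of a gene differed in sign for Ccne1, Cdc6, Mki67 and Tpx2, all with small differences.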

How the data were processed

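Signals of 7 Agilent one-colour arrays were used as deposited: per the file headers, Feature Extraction 10.7.3.1 wrote background-corrected intensity values (gProcessedSignal) for each spot. The authors' series value table of log2 values, deposited with the arrays, served as an alternative. Groups came from the sample titles.

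Control spots (3671 of 62976 on each array) and outlier spots (0.4%) were left out. The log2 of each intensity minus the array's 75th percentile was averaged over spots of a probe. Of 55681 probes, the 34133 that 3 or more of the 7 arrays measured well above background were tested. RefSeq accessions named 26413 probes (47.4%), and a gene took its probe of highest mean signal. The 14553 genes were fitted together in limma 3.58.1 (R 4.3.3) with Benjamini-Hochberg adjustment at 0.05, 5 residual degrees of freedom, and no covariates. The number of arrays limits the precision. Arrays of a group correlated at 0.9853 to 0.9918 across genes and arrays of different groups at 0.9785 to 0.9844.

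The members and gene lists were chosen with earlier results of these data known, so no p over a list is given. All members could be named. Values on every array were given for the 4 of each class with the largest absolute log2 fold change and for Mki67, Top2a, Pcna, Mcm2, Ccnb1, Cdk1, E2f1 and E2f2. Other lists named up to 6 genes past the threshold, or the 2 with the largest absolute log2 fold change where none passed. Some genes that these rules name are not reported here. Gata2 and Cdkn1a were named besides, and Cdkn1c, Btg1, E2f5 and Cdkn2d after their values were seen. Alternatives covered background correction, scaling, the authors' values, filters, a common floor, probe rules, variance models, a replicate block, thresholds and leaving out each array. The fit was tested on simulated data. The files hold no mean signal column, so normexp used median signals. Skp2 and Hist1h4a had no named probe, and the probes of Cdkn2a and Cdkn2b were too dim to test.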

Additional observations from a re-analysis of the deposited data

Results flagged for a closer look

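Of the genes named from the members and lists, 2 had 1 control array far from the other 3. For Ccna2, cyclin A2, control 3 read 5.52 and the nearest control 5.22, a gap of 0.838 of the group's range. For Cks1b, a partner of cyclin-dependent kinases, control 1 read 5.54 and the nearest control 5.91, a gap of 0.848 of the range. Both gaps are above the 95% critical value of Dixon's test for 4 samples, which chance passes in about 5% of groups. All 40 members, the genes that the naming rules took from the lists and Gata2 were searched. Some such gaps are therefore expected by chance.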

How the results depend on the processing

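No member passed 0.05 under any of 19 refits or with every probe on its own, nor 0.01 or 0.1 in the fit as reported. The number of genes called in these refits ran from 178 with the replicate block to 2827 without the filter on dim probes, beside 417 as reported, and it was 1524 with array weights. With array weights the adjusted p was 0.0505 for Ccne2, the lowest of any member, 0.0616 for Ube2c, 0.0818 for Cdk2 and 0.0962 for Ccna2, the only members under 0.1 in any refit. The median of all genes ran from -0.11 to 0.02. The median of the S phase members moved from -0.09 to 0.02 with quantile normalization, and 21 of 40 members changed sign under some setting that kept all arrays. Of 760 values of single members, 746 moved by less than the spread between replicates. The count of called genes in the other cell cycle lists was 1 as reported. It was 6 with array weights (Cdkn1a, Cdkn1c and Mybl2 higher, Btg1, Cdkn2c and E2f5 lower), and 1 to 2 when 1 array was left out. E2f5 was added without knockout replicate 2 (log2 fold change -0.95, limma adjusted p = 0.0322) and Cdkn1c without control replicate 3 (1.62, limma adjusted p = 0.0499). Labels share replicate numbers between the groups, but deviations of same-numbered arrays correlated at -0.17, -0.15 and 0.00, and no array correlated best with its own number. With the replicate block no member and 0 of the listed genes passed, Cdkn1a having a log2 fold change of 1.11 (limma adjusted p = 0.0896), and the lowest adjusted p of a member was 0.104. Arrays labelled knockout and controls differed in the dimmest signal above background (-6.91 to -6.21 against -5.59 to -5.32), which limits comparisons of dim genes such as Cdkn1c.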
